A study of Xenopus laevis with 4 samples.

Results

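The activin and bone morphogenetic protein (BMP) receptors were represented by 12 probe sets of 15491 that were not controls. A probe set was taken when its 1 platform symbol, without the ending .L or .S, was acvr1, acvr1b, acvr2a, acvr2b, bmpr1a, bmpr2 or tgfbr2. The 12 probe sets stood for 9 gene copies, of 7531 with a single-symbol probe set, and for 6 of these 7 genes, and no probe set used here carried the single symbol tgfbr2. A further 2 probe sets that carry the symbols of both copies of acvr2b or of bmpr1a were left out. The endings mark the homeologs, the corresponding copies on the long (.L) and short (.S) subgenomes of the allotetraploid frog Xenopus laevis.

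These receptors are transmembrane serine/threonine kinases. A dimeric ligand of the TGF-beta family brings a type II receptor and a type I receptor together, the type II receptor phosphorylates the type I receptor, and the type I receptor phosphorylates SMAD proteins that enter the nucleus. ACVR1 and BMPR1A are type I receptors of BMPs, ACVR1B is a type I receptor of activin and nodal ligands, ACVR2A and ACVR2B are type II receptors of both branches, and BMPR2 is a type II receptor of BMPs. In the Xenopus embryo, activin-like signals induce mesoderm and endoderm and BMP signals specify ventral fates, and the maternal store of the oocyte supplies receptor RNA for the first divisions.

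RNA from intact stage VI oocytes, the full-grown stage, was compared with RNA from vegetal cortices, the layer under the plasma membrane of the yolk-rich hemisphere. There were 2 arrays per group, and each replicate number stood for a different female that gave both the oocytes and the cortices. All oocytes had been freed with collagenase, and cortices were cut by hand from the vegetal part, pressed free of yolky cytoplasm and frozen in batches, so each array pools several oocytes or cortices. The labels name no genetic change or drug in either group. The description of vegetal cortex replicate 2 carries the numbers of replicate 1, and its title was followed.

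The median signal per array lay between 521.0 and 601.2. The 7 tested copies of oocyte marker genes (4 egg envelope genes, mos and both copies of ybx2) had a median log2 change of 0.35. Their changes ran from -0.23 to 1.48, the highest for zp2.L (limma adjusted p = 0.0892). Of 9 tested copies of known vegetal cortex RNAs, 8 were called higher in the cortex (limma adjusted p under 0.05), against 3.31% of all tested probe sets. All 9 had log2 changes above 0, with a median of 3.16. The copy not called, vegt.S, was at 2.73 (limma adjusted p = 0.185). These marker lists were chosen with earlier results of these data known. The follicle and stromal cell list summed to signals of 33095 and 33328 in whole oocytes and 55969 and 52405 in cortices. Without the probe sets of cyp17a1.L, a steroid hydroxylase, the sums were 28521 and 27246 in whole oocytes and 25409 and 35476 in cortices. These were lower in the cortex in the first female and higher in the second. The probe sets of fn1.S made up most of them, so they mainly follow that gene and not the list as a whole. The brightest fn1.S probe set alone read 14285 and 13428 in whole oocytes and 12892 and 18394 in cortices. Of the 4 tested genes of the list, cyp17a1.L rose by its brightest probe set (log2 change 2.13 ± 0.36 SE, limma adjusted p = 0.0168; 1.89 and adjusted p = 0.121 without whole oocyte replicate 1). Its other probe set, with overlapping groups, was at 1.46 ± 0.70 SE (limma adjusted p = 0.439). The log2 change of that probe set was 0.40 without vegetal cortex replicate 1 and 2.52 without vegetal cortex replicate 2. The other tested genes did not pass, with log2 changes of 0.15 for fn1.S, 0.05 for vim.L and -0.90 for pdgfra.L. The remaining 16 of the 24 probe sets, among them all of the follicle-stimulating hormone receptor and the collagens, had mean signals between 4.81 and 130.8. No blood marker reached the limit for testing. Whether the cyp17a1.L and fn1.S RNA came from follicle cells or from oocytes was not tested, so the list sums do not measure follicle cells. The part of follicle cells in the receptor values was not tested either. In such bulk samples fewer cells of a type and less RNA per cell cannot be told apart.

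One receptor RNA of this family rose in the vegetal cortex. acvr1.L, the long-subgenome copy of the BMP type I receptor, was 5.44-fold higher in cortices than in whole oocytes, and its short-subgenome copy acvr1.S was 1.45-fold higher without passing the test. All 4 probe sets of bmpr1a, the other BMP type I receptor measured here, had lower signals in the cortex in both females, and none passed. Of all tested probe sets 47.0% were lower in both females. The tested probe sets of the activin receptors acvr1b.S, acvr2a.L and acvr2b.S had mean changes near 0 and opposite signs in the females.

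Signals are given for the arrays in the order whole oocyte replicates 1 and 2, then vegetal cortex replicates 1 and 2, on the linear scale of the deposited intensities. Changes are differences of log2 signals after adding an offset of 19.11. The signal of a probe set depends on its own probes, so levels were compared between groups and not between genes. The limit for testing was a mean signal of 271.5, which 9 of the 12 reached. Of these 9, 1 was called higher in the cortex and 0 lower by limma (adjusted p under 0.05), against 3.31% called higher and 0% called lower among all 9295 tested probe sets. At an unadjusted p under 0.05 there were 2 receptor probe sets, against 12.6% of all tested (745 higher and 429 lower). Signals of the groups did not overlap for 4 of the 9, against 46.5% of all tested probe sets. The median log2 change of the 9 was 0.03, beside -0.20 over all tested probe sets, of which 65.7% lay below 0.

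**Figure D1:**
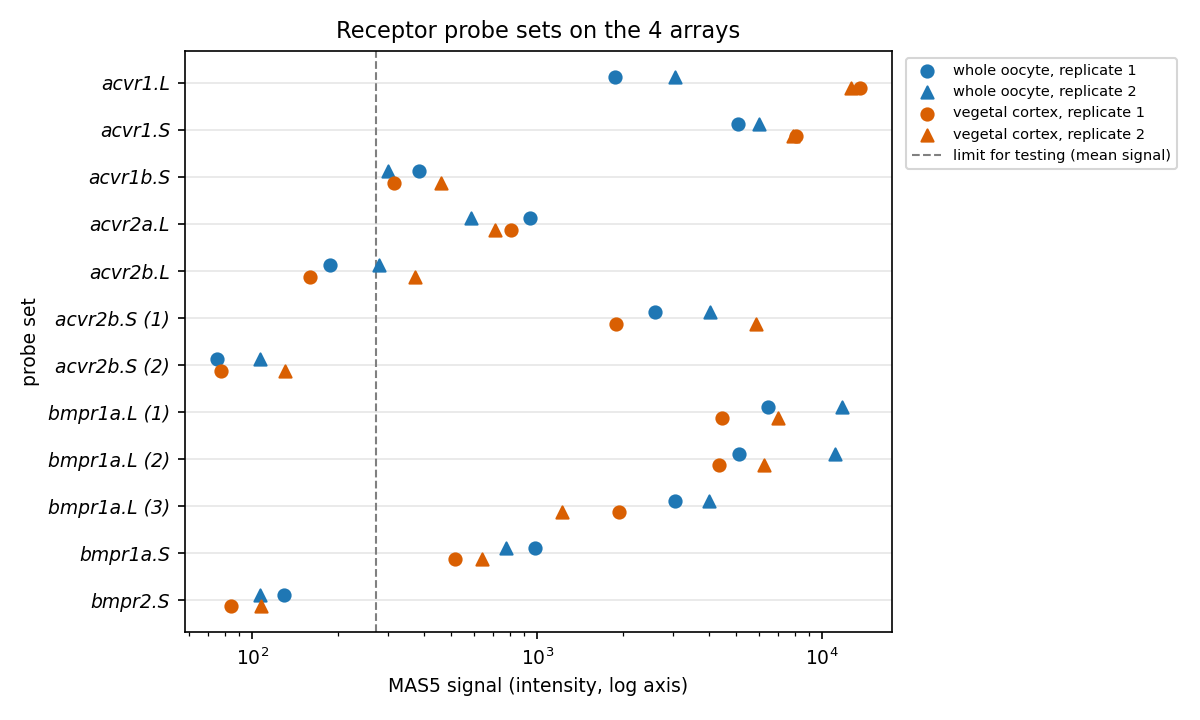
MAS5 signal (log axis) of each of the 12 receptor probe sets on the 4 arrays; blue marks whole oocytes, orange vegetal cortices, circles replicate 1, triangles replicate 2, and numbers in brackets tell probe sets of 1 gene copy apart. The cortex signals of acvr1.L (13567 and 12603) lie far to the right of its whole oocyte signals, and the 3 dim probe sets lie left of or around the dashed limit at 271.5.

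acvr1.L encodes ACVR1, also called ALK2, a type I receptor through which BMPs act on SMAD1 and SMAD5. Its signals were 1878 and 3039 in whole oocytes and 13567 and 12603 in vegetal cortices. Both cortex signals were above both whole oocyte signals, and the cortex arrays lay closer to each other than the whole oocyte arrays did. The mean signal went from 2459 ± 821 to 13085 ± 682 (SD, n = 2). The log2 change was 2.44 ± 0.35 SE (95% interval 1.64 to 3.25, adjusted p = 0.00879 by limma), or 5.44-fold with an interval from 3.11-fold to 9.51-fold. Within the females the increase was 7.16-fold in the first and 4.13-fold in the second. Ranked by change, acvr1.L stood at position 189 of 9295 tested probe sets and at position 164 of the 308 called. The call held in every alternative setting that kept all 4 arrays. It was lost without whole oocyte replicate 1 (log2 change 2.10).

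acvr1.S encodes the same receptor on the short subgenome. Its signals were 5056 and 6023 in whole oocytes and 8123 and 7885 in cortices. The groups did not overlap for this copy either, but the step was small. The log2 change was 0.53 ± 0.31 SE (95% interval -0.17 to 1.24, adjusted p = 0.501), so the interval runs from 0.890-fold to 2.36-fold. The females gave increases of 1.60-fold and 1.31-fold.

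The change of acvr1.L exceeded that of acvr1.S by 1.91 ± 0.34 SE on the log2 scale (95% interval 1.11 to 2.70), which is a 3.75-fold larger increase. In the first female the difference was 2.16 and in the second 1.66. Each copy was read by a single probe set, and whether these probe sets also bind RNA of the other copy was not checked. The test used the log2 difference between the copies on each array over 636 homeolog pairs with both copies tested. The unadjusted p was 0.000562 and the adjusted p = 0.0510 by limma, just over the threshold of 0.05. Of all pairs 0.943% were called, and 59 had an unadjusted p under 0.05. By absolute size the acvr1 difference ranked at position 14 of 636. With the replicate number as a block the adjusted p was 0.0271 by limma. Over the alternatives with all 4 arrays it ranged from that value to 0.115, and it missed the threshold only without the intensity trend. The difference also did not pass without either whole oocyte array, in fits that called fewer homeolog pairs than the reported fit. Estimates over all 11 alternatives lay between 1.69 and 2.13. The plot of both copies sets acvr1 beside bmpr1a and the distribution over all pairs.

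**Figure D2:**
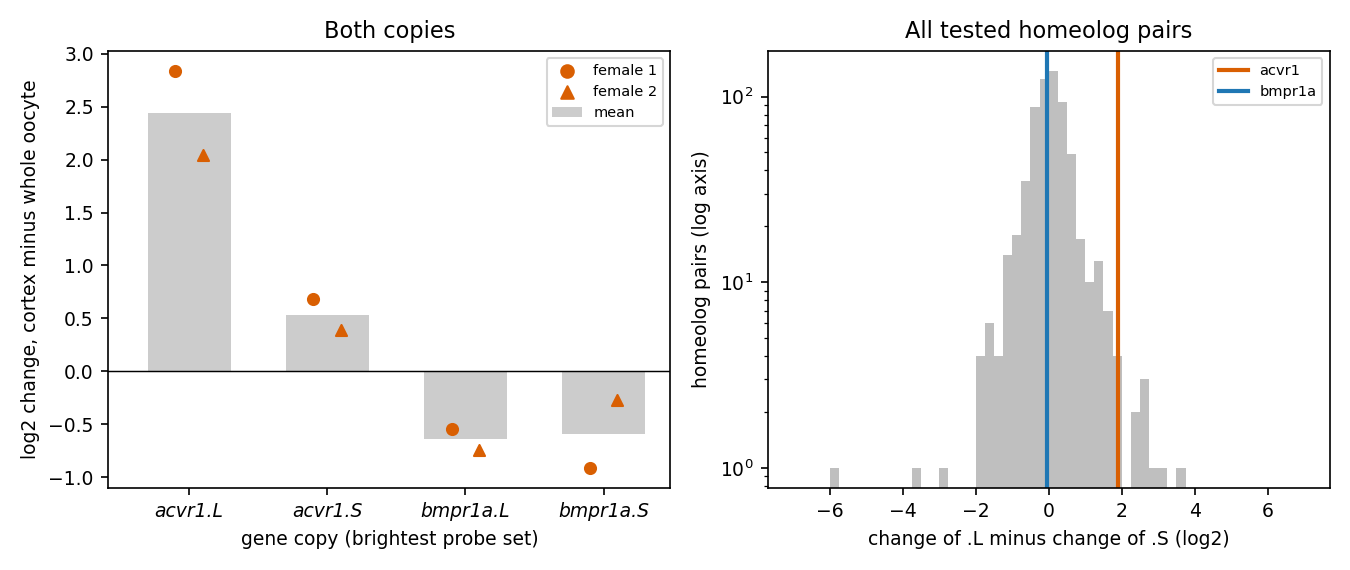
Left, log2 change (vegetal cortex minus whole oocyte) of both copies of acvr1 and bmpr1a, with bars for the mean and points for each female. Right, number of homeolog pairs (log axis) by the change of .L minus the change of .S, with lines at acvr1 (1.91) and bmpr1a (-0.05) among 636 pairs.

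bmpr1a.L encodes BMPR1A, or ALK3, a type I receptor of BMPs, and was measured by 3 probe sets. The brightest read 6481 and 11752 in whole oocytes and 4440 and 7022 in cortices. Within each female the cortex was lower, but the groups overlapped because the second female had the higher signal in both groups. Its log2 change was -0.64 ± 0.40 SE (95% interval -1.56 to 0.27, adjusted p = 0.530 by limma). With the replicate number as a block the SE was 0.25 and the adjusted p was 0.250 by limma. The second, of the kind that Affymetrix marks as possibly binding other transcripts, gave 5128 and 11134, then 4334 and 6259. It showed the same order of the arrays, with a log2 change of -0.54 ± 0.43 SE.

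The third bmpr1a.L probe set had a larger mean decrease than these, and the difference was not tested. Its signals were 3039 and 4010 in whole oocytes and 1938 and 1221 in cortices, so the groups did not overlap. The log2 change was -1.17 ± 0.39 SE (95% interval -2.06 to -0.28), with an unadjusted p of 0.0159 and an adjusted p of 0.243 by limma. The females gave -0.64 and -1.70. Only 2.01% of all tested probe sets had a lower log2 change than this one. Without vegetal cortex replicate 1 its log2 change was -1.50, in a fit whose error comes from the whole oocyte arrays.

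bmpr1a.S, the short-subgenome copy, gave 984.7 and 778.8 in whole oocytes, and 514.1 and 640.5 in cortices. Both cortex signals were below both whole oocyte signals. The log2 change was -0.59 ± 0.40 SE (95% interval -1.51 to 0.33, adjusted p = 0.555 by limma). Over homeolog pairs, the change of the brightest bmpr1a.L probe set minus that of bmpr1a.S was -0.05 ± 0.50 SE (adjusted p = 0.993). The 95% interval of that difference, as a ratio of the changes, runs from 0.436-fold to 2.14-fold. Being lower in both females, as these 4 probe sets were, held for 47.0% of all tested probe sets.

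**Figure D3:**
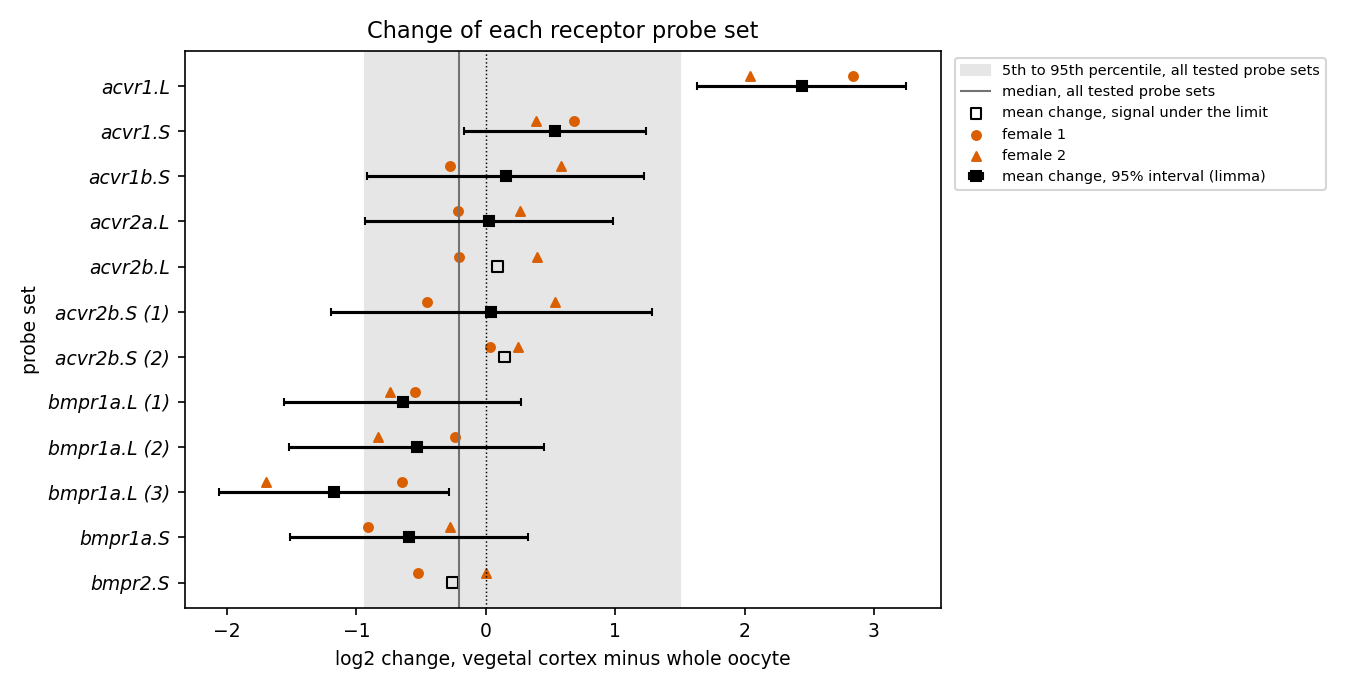
Log2 change (vegetal cortex minus whole oocyte) of the 12 receptor probe sets; squares give the mean, bars the limma 95% interval for the 9 tested ones, open squares the 3 under the limit, and orange points each female. The grey band spans the 5th to 95th percentile of all tested probe sets (from -0.93 upward to 1.50); of the receptors, acvr1.L lies above it and the third bmpr1a.L probe set below it.

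acvr1b.S encodes ACVR1B, or ALK4, the type I receptor for activin and nodal ligands. Its signals were 383.5 and 299.8 in whole oocytes and 313.5 and 458.2 in cortices. The groups overlapped, and the first female had the lower and the second the higher signal in the cortex. The log2 change was 0.15 ± 0.47 SE (95% interval -0.92 to 1.22, adjusted p = 0.911 by limma).

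acvr2a.L, a type II receptor of activins and BMPs, read 940.3 and 587.0 in whole oocytes and 807.8 and 709.5 in cortices. The cortex signals fell between the whole oocyte signals. The log2 change was 0.03 ± 0.42 SE (adjusted p = 0.983 by limma), and its 95% interval, from 0.524-fold to 1.98-fold, was the only one among the 9 that excluded a 2-fold change in both directions.

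The other activin type II receptor, acvr2b, was measured in both copies. The brighter acvr2b.S probe set read 2590 and 4039 in whole oocytes and 1888 and 5861 in cortices. The cortex arrays lay on either side of the whole oocyte arrays, and this was the widest interval among the 9 tested probe sets (log2 change 0.04 ± 0.54 SE, 95% interval -1.20 to 1.28, adjusted p = 0.978 by limma). With the replicate number as a block, the SE of this brighter probe set was 0.34. The second acvr2b.S probe set was under the limit, with 75.2 and 106.3 in whole oocytes and 77.6 and 130.1 in cortices. acvr2b.L was under it too, with 187.0 and 278.5, then 159.0 and 371.8. All 3 acvr2b probe sets had a higher signal in the second female in both groups, as the first 2 of bmpr1a.L did. Among all tested probe sets 31.2% had this order, and 3 of the 9 tested receptor probe sets did.

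bmpr2.S, the BMP type II receptor, was dim on every array, with 129.3 and 106.6 in whole oocytes and 84.4 and 106.9 in cortices. The groups overlapped, and the log2 change of -0.26 has no test at the limit used. With every probe set tested, the 3 dim receptor probe sets had adjusted p-values between 0.876 and 0.968 by limma, and their intervals reached from -1.32 to 1.37.

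The change of acvr1.L was set against that of each other tested receptor by the log2 difference on each array. It exceeded the change of acvr1b.S by 2.29, of acvr2a.L by 2.42, of acvr2b.S by 2.40 and of bmpr1a.S by 3.04, and those of the bmpr1a.L probe sets by 2.98 to 3.61. For these 7 probe sets the adjusted p ranged from 1.85e-07 to 0.00343 by limma, in a fit where 93.1% of all 9294 other probe sets were called. Each of these differences contains the same acvr1.L values, so these p-values are too small. With the errors of both changes combined as independent, an alternative chosen after seeing the data, they ranged from 0.00181 to 0.00691, with 92.5% of all probe sets called. These fits gave acvr1.S adjusted p-values of 0.000781 and 0.00449, where the fit over homeolog pairs gave 0.0510. The differences from acvr1b.S and acvr2b.S did not pass without vegetal cortex replicate 1 (1.98 and 1.54), and that from acvr1b.S did not pass without whole oocyte replicate 1 (1.78).

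The genes whose 4 signals moved most like those of acvr1.L were found by the root-mean-square difference of log2 signals, each taken relative to its own whole oocyte mean. Among single-symbol probe sets the 5 nearest were dnd1.L, a germ cell RNA-binding protein gene (0.09), mier2.L, a transcriptional co-regulator gene (0.11), rab11fip4l.L, a gene of the Rab11-binding family (0.12), pc.1.L, pyruvate carboxylase (0.12), and a probe set of camk2g.S, a calcium/calmodulin-dependent kinase (0.14). With 4 arrays this order is a description of these samples. dnd1.L read 5103 and 6902 in whole oocytes and 32796 and 30921 in cortices, a 5.35-fold increase.

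Other genes of the pathway were read from 5 lists of ligands, further receptors, SMADs and regulators. For comparison, 3.31% of all 9295 tested probe sets were called higher and 0% lower. Among the ligands 4 of 18 gene copies on the array were bright enough to test, and 1 rose and 0 fell, with a median log2 change of 0.84. gdf1.S encodes Vg1, a maternal ligand stored vegetally, which signals through activin-type receptors with a co-receptor. This gene was also among the known vegetal cortex RNAs counted above. Its signals went from 12626 and 14776 to 51311 and 58063, without overlap (3.99-fold, adjusted p = 0.00447 by limma). bmp2.S, a BMP ligand, had 1026 and 2144 in whole oocytes and 3285 and 5586 in cortices (log2 change 1.52 ± 0.46 SE, adjusted p = 0.186). bmp7.2.L, another BMP ligand, had a log2 change of -0.92 ± 0.34 SE (adjusted p = 0.323).

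None of 4 tested copies of further receptors and co-receptors was called, with a median log2 change of -0.19. tgfbr1.S, a type I receptor of TGF-beta ligands, read 1266 and 839.7 in whole oocytes and 1220 and 967.8 in cortices, with a log2 change of 0.07 ± 0.40 SE. tdgf1.3.L, an EGF-CFC co-receptor for nodal and Vg1 ligands, was at -0.28 ± 0.27 SE and rgma.L, a BMP co-receptor, at -0.27 ± 0.51 SE.

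Among 4 tested SMAD copies 1 rose and 0 fell, with a median of -0.05. smad7.L encodes an inhibitory SMAD that binds type I receptors and blocks their signal. The brightest of its 3 probe sets read 835.0 and 418.8 in whole oocytes and 6465 and 3471 in cortices. Both cortex signals were above both whole oocyte signals, and the increase was 7.78-fold (log2 change 2.96 ± 0.47 SE, adjusted p = 0.0135 by limma). A second smad7.L probe set was at 2.08 ± 0.46 SE and did not pass (adjusted p = 0.0551), and the third, at 1.74, was too dim to test. The call of the brightest probe set was lost without whole oocyte replicate 2 (2.48, adjusted p = 0.0978). The other inhibitory SMAD, smad6.L, was at -0.89 ± 0.41 SE (adjusted p = 0.420), and smad2.L, which carries activin-type signals, at -0.46 ± 0.50 SE.

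Of 17 tested copies of intracellular regulators 1 rose and 0 fell, with a median log2 change of -0.32. tob2.L belongs to the anti-proliferative Tob/BTG family, whose member Tob1 restrains BMP signalling in mouse. It went from 2135 and 3586 to 28676 and 27872, without overlap (10.2-fold, log2 change 3.34 ± 0.34 SE, adjusted p = 0.00256 by limma). Its second probe set also rose (7.36-fold, adjusted p = 0.00364). id2.L, a BMP target gene, was at -0.67 ± 0.33 SE and the SMAD phosphatase gene ctdsp2.L at -0.35 ± 0.29 SE, and neither passed. None of 5 tested copies of extracellular regulators was called, with a median of 0.13 and a range from -1.86 to 0.47. The lowest was dand5.S, an antagonist of TGF-beta family ligands (-1.86 ± 0.68 SE, adjusted p = 0.316). furin.L, a protease that matures such ligands, was at 0.33 ± 0.34 SE and twsg1.L, a BMP-binding protein, at 0.47 ± 0.48 SE.

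**Figure D4:**
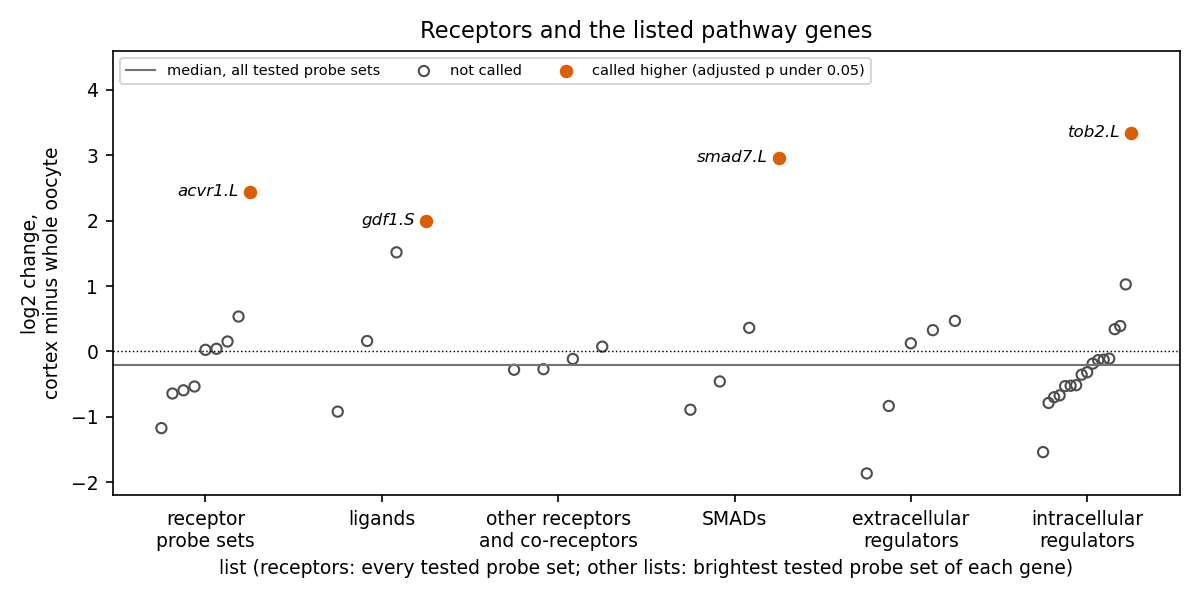
Log2 change (vegetal cortex minus whole oocyte) of the tested receptor probe sets and of the tested genes of 5 pathway lists; filled orange points passed limma at an adjusted p under 0.05. acvr1.L (2.44), gdf1.S (2.00), smad7.L (2.96) and tob2.L (3.34) are the filled points, and no point is called lower.

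**Figure D5:**
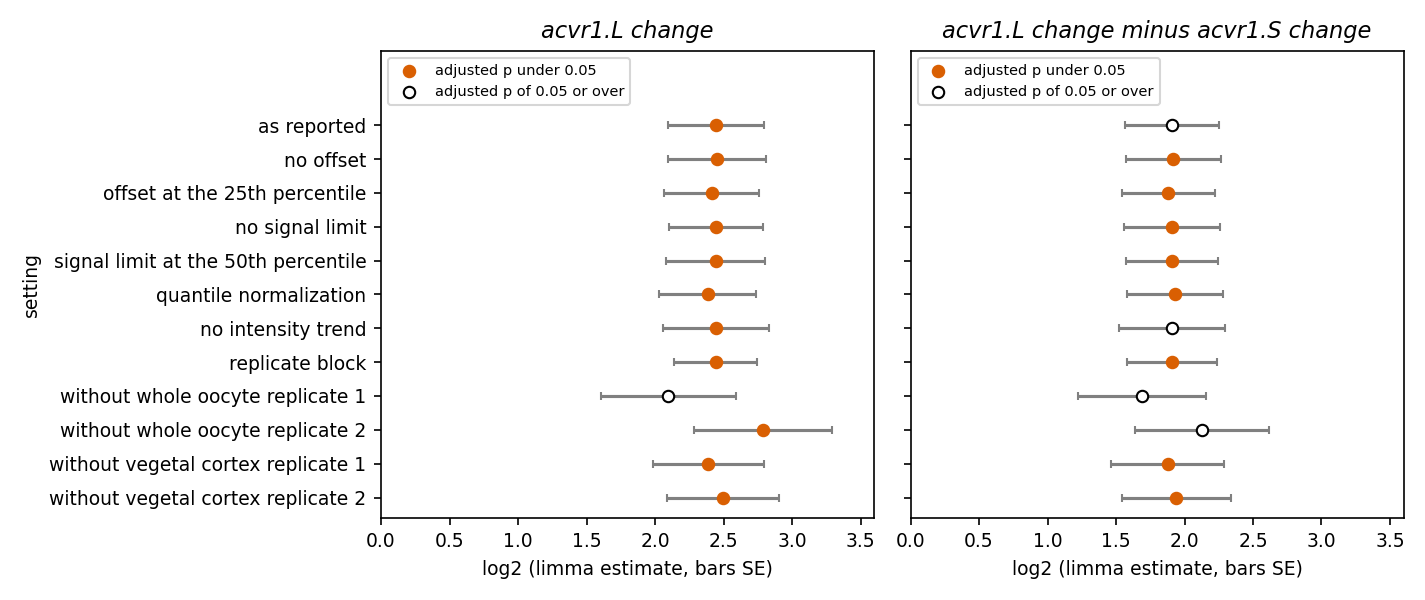
Estimates (log2, bars SE) of the acvr1.L change and of its difference from the acvr1.S change under the reported setting and 11 alternatives. The acvr1.L change lies between 2.10 and 2.79 and misses the threshold in 1 alternative. The difference lies between 1.69 and 2.13. With all 4 arrays it passes in every alternative except without the intensity trend. Passes in fits that leave 1 array in a group are not counted.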

How the data were processed

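Total RNA (100 ng per sample) from 2 whole oocyte and 2 vegetal cortex samples was amplified in 2 cycles of cDNA synthesis, biotin-labelled and hybridized to 1-colour Affymetrix arrays, per the labels' protocols. The deposited intensity values came from MAS5 according to the submitters' processing notes; no version or setting of it is given in the sources used. This method merges the probes of each set into 1 linear signal and scales each array, and the mean after trimming 2% at each end was 1500.1 or 1500.2 on every array. Changes are therefore relative to the other RNAs of a sample, not amounts per oocyte. Detection calls were not used, amplification favours 3' ends, and the number of arrays limits the precision. Platform symbols were updated through a RefSeq gene table of Xenopus_laevis_v10.1 (9227 of 9304 single-symbol probe sets matched, 2 symbols updated).

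An offset (10th percentile of signals, 19.11) was added before log2, which understates the changes of dim probe sets. Probe sets at or above the 40th percentile of mean signals (271.5) were tested with limma 3.58.1 in R 4.3.3 (two-sided; lmFit with no block, then eBayes with its variance prior following intensity; residual degrees of freedom 2, prior 6.22), with Benjamini-Hochberg adjustment over all 9295 tested probe sets. Copies were compared by limma on within-array log2 differences over 636 homeolog pairs, using the brightest tested probe set of each copy. The fits over all probe sets and over homeolog pairs were run on simulated data with known changes as a check of the code. Replicate numbers pair samples through the donor female, per the labels, and deviations of same-numbered samples correlated at 0.35 over tested probe sets; the blocked value is given where it changes a call. Alternatives changed the offset, signal limit, normalization, trend, block and single arrays. All members are named, with called genes and the 3 brightest of each pathway list. The members and lists were chosen with earlier results of these data known. No sequence or genome coordinate was used here.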

Additional observations from a re-analysis of the deposited data

How the results depend on the processing

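The acvr1.L increase kept its direction in all 11 alternatives and passed in each that kept all 4 arrays. Its log2 change was 2.10 to 2.79 when single arrays were left out and 2.44 with the replicate block. It did not pass without whole oocyte replicate 1. The difference between the acvr1 copies passed by limma without an offset (1.92, adjusted p = 0.0447) and with the 25th percentile as offset (1.88, 0.0474). It also passed with no signal limit (1.91, 0.0441) and with the limit at the 50th percentile (1.91, 0.0325). Quantile normalization (1.93, 0.0375) and the replicate block (1.91, 0.0271) kept it under the threshold, and leaving out the intensity trend (1.91, 0.115) did not. With single arrays left out it ranged from 1.69 to 2.13. It did not pass without either whole oocyte array, in fits that called fewer homeolog pairs than the reported fit. Passing without a cortex array was not counted, as those fits called many more of all tested probe sets. In fits with 1 array left in a group, that array is assumed to vary like the other group. Leaving out single arrays gave 0 to 1 receptor probe sets higher, 0 to 1 lower, 125 to 697 of all tested probe sets higher and 0 to 673 lower; quantile normalization gave 1 lower. In every setting with all 4 arrays, the fit on differences from acvr1.L called each other tested receptor probe set. Its p-values are too small, because every difference contains the same acvr1.L values. As reported, it called 93.1% of all 9294 other probe sets. For acvr1.S, the reported fit over homeolog pairs gave an adjusted p of 0.0510 by limma. With single arrays left out, the differences from acvr1b.S and acvr2b.S did not always pass. Signs turned with single arrays left out for acvr1b.S (-0.11 to 0.41), acvr2a.L (-0.31 to 0.36), acvr2b.S (-0.77 to 0.85), the second bmpr1a.L probe set (-1.09 to 0.023) and the bmpr1a copy difference (-0.64 to 0.55), none of which passed in any of these fits. The replicate block changed no other call among the receptors. The cause of these shifts was not tested.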

Other observations

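A pair of probe sets carries the symbol tgfbr2l.L, which is not among the chosen receptor symbols; they were looked at after the data were seen. The first read 55.0 and 124.6 in whole oocytes and 101.6 and 47.7 in cortices, and the second had 89.3 and 83.2, then 61.5 and 89.6. Both were under the limit for testing, and the groups overlapped for both. Between the copies of the ligand gene bmp2, bmp2.S had a log2 change of 1.52 and bmp2.L of 0.16, and neither passed by limma (adjusted p = 0.186 and 0.871). The change of bmp2.L minus that of bmp2.S was -1.36 over the homeolog pairs (adjusted p = 0.471).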
